A study of Mus musculus with 25 samples.

Results

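HiChIP contacts that cross a TAD boundary are pairs of 10 kb genome bins that a chromatin contact joins although the bins lie in different topologically associating domains (TADs). They were taken from the authors' high-confidence lists for H3K27ac in embryonic stem (ES) cells, KLF4 in ES cells and H3K27ac in mouse embryonic fibroblasts (MEFs), and each autosomal pair was placed by its 2 bins in the TADs of the same cell type. The rule found 1468 crossing pairs in ES H3K27ac, 332 in ES KLF4 and 876 in MEF H3K27ac. These 2676 list entries, 2327 different bin pairs, stood among 160925 entries of the 3 lists and 912901 entries of all 9 contact lists of the series. Both sides of the rule are measured values, HiChIP contacts and Hi-C domains, so the members were selected on readouts of these samples, and their number, distances, strength and Hi-C listing are described here without a test.

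The series held 25 libraries in 9 groups. ES cells were the V6.5 line in 2i medium, which holds ES cells in an undifferentiated state, with 2 H3K27ac, 4 KLF4 and 2 Hi-C libraries. MEFs came from E13.5 rtTA3-OKSM embryos that were heterozygous for Oct4-GFP, OKSM and rtTA3, at passage 3, with 2 H3K27ac and 2 Hi-C libraries. The same kind of MEF, given doxycycline (dox) to switch on the OKSM cassette, with ascorbic acid, gave KLF4 libraries at day 3 (bulk cells, 3 libraries) and day 6 (SSEA1-sorted cells, 4 libraries). V6.5 cells labelled TKO, in 2i, gave 3 H3K27ac libraries without dox (0 h) and 3 after 24 h of dox; the labels do not say which genes TKO stands for. The MEFs carry the reprogramming transgenes before dox as well, and day 3 is a mixed population. Nothing in the labels ties libraries to separate embryos or cultures, so the spread between them may be technical.

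TADs are stretches of chromosome whose sequence contacts itself more often than it contacts the neighbouring stretch. Their boundaries often hold CTCF sites, where loops extruded by cohesin stop, and they limit which enhancers reach which promoters. H3K27ac marks active promoters and enhancers, and KLF4 is a zinc finger factor that binds many of both in ES cells and is one of the reprogramming factors. HiChIP reads out contacts in which at least one side carries the mark or factor, so contacts between unmarked bins are under-read.

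A few promoters stand for the results below: Slc3a2 and Snhg1, the 2 sides of the strongest crossing pair in ES cells, and Nanog and Apobec1, the strongest crossing pair of Nanog. Sequences are RefSeq's (GRCm38.p6, the assembly called mm10), from 250 bases before to 50 bases after the start, 5′ to 3′ on the gene's strand. Capitals mark the letters GGGNGTGG, a short form of the KLF4 motif, on either strand.
Slc3a2 (chr19:8713848-8714147, minus strand): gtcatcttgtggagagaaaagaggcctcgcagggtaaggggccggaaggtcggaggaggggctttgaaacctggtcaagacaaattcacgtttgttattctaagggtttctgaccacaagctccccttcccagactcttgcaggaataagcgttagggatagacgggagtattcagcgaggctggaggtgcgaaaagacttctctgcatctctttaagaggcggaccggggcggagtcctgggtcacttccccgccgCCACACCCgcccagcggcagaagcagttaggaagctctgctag
Snhg1 (chr19:8723237-8723536, plus strand): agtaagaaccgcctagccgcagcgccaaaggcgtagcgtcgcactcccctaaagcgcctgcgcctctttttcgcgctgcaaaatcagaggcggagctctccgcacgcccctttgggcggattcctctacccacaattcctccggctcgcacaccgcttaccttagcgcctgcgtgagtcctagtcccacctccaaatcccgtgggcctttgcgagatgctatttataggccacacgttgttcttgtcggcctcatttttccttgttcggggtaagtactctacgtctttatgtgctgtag
Nanog (chr6:122707239-122707538, plus strand): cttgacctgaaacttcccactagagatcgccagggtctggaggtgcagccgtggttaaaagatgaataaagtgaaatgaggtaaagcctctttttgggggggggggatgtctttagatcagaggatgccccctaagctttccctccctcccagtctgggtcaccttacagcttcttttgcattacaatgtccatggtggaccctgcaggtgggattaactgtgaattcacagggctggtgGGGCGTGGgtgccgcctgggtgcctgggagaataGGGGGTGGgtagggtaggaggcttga
Apobec1 (chr6:122602395-122602694, minus strand): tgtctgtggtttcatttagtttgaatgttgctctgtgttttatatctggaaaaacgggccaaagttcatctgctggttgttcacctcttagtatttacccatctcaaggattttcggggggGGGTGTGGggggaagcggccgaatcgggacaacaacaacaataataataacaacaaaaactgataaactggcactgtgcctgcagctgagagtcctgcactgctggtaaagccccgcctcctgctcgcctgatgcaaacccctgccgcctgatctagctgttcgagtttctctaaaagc

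The Slc3a2 window held 1 match, Nanog 2, Apobec1 1 and Snhg1 none. Of 31396 autosomal RefSeq promoters of this length, 17.7% held at least 1 match. Promoters in bins of crossing pairs held one in 28.9% of cases in ES KLF4 (87 of 301; 95% Wilson interval 24.1 to 34.3), against 23.2% for promoters in bins with pairs within a TAD and no crossing pair. In ES H3K27ac the values were 22.4% and 21.8%, and in MEF H3K27ac 21.8% and 20.3%. The ES KLF4 value was the higher of the 3, and its interval began above 23.2%; promoters that share a bin or a start are not independent. A match is a run of letters, not a shown binding site.

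Few listed contacts crossed a boundary, and fewer than the distances alone would give. In ES H3K27ac, 2.07% of the pairs whose bins both lay in a TAD crossed (1468 of 70804; 1.97 to 2.18%, Wilson, counting error only), while 4.63% of all autosomal bin pairs at the same distances did. The shares were 1.41% against 3.54% in ES KLF4 and 1.51% against 4.39% in MEF H3K27ac. Nearly all members crossed a single boundary: 1438 of 1468, 331 of 332 and 872 of 876, with up to 5 boundaries in ES H3K27ac. A further 1874, 624 and 1409 listed pairs had a bin in no TAD and were left out.

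The members held more long contacts than pairs within a TAD did. The rule itself favours this, since the share of all bin pairs that cross rises with distance, as given below. Their median distance was 40 kb in ES H3K27ac against 30 kb for pairs within a TAD, 20 kb against 20 kb in ES KLF4 and 30 kb against 20 kb in MEF H3K27ac. Distances of 100 kb or more made up 23.8%, 12.7% and 21.5% of the members, against 8.0%, 5.05% and 7.56% of pairs within a TAD. Listed pairs fell further below all bin pairs as distance rose to 190 kb. Neighbouring bins 10 kb apart crossed in 1.25% of listed ES H3K27ac pairs and in 1.16% of all bin pairs. At 50 to 90 kb the values were 2.18% and 7.44%, and at 100 to 190 kb 3.56% and 15.1%. In MEF H3K27ac at 100 to 190 kb they were 1.57% and 15.0%. At 200 kb or more the shares stood closer in ratio, at 17.1% against 30.8% in ES H3K27ac, 9.26% against 29.4% in ES KLF4 and 12.1% against 33.8% in MEF H3K27ac.

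**Figure D1:**
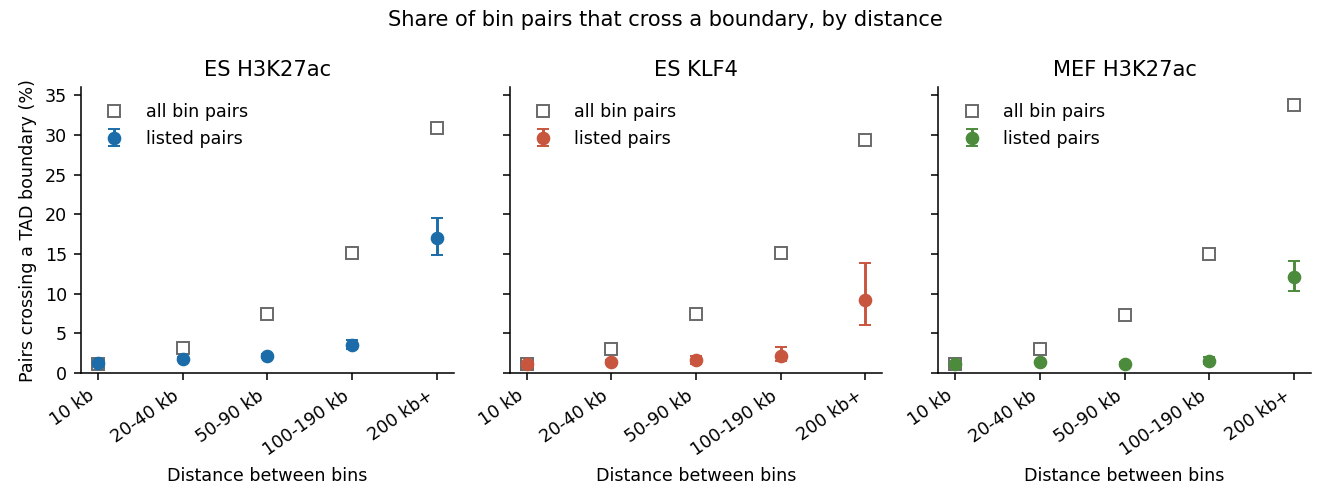
Share of bin pairs that cross a TAD boundary (%, vertical axis) by the distance between the bins (horizontal axis), in 3 panels for the 3 lists. Filled points are listed pairs with 95% Wilson intervals and open squares are all autosomal bin pairs; the 2 lie together at 10 kb, and at 100 to 190 kb the listed pairs sit at 3.56%, 2.21% and 1.57% under squares near 15%.

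A second reading set crossing pairs against pairs within a TAD that use the bins of the list, on the same chromosome at the same distance. Of such possible pairs over a boundary, 0.121% were listed in ES H3K27ac, where pairs within a TAD gave 0.274%, a ratio of 0.441 (Poisson interval 0.419 to 0.464). The ratio was 0.421 in ES KLF4 and 0.316 in MEF H3K27ac, and it was below 1 on 19 of 19 autosomes in each list. By distance it was not below 1 throughout. Pairs 10 kb apart gave 1.11, 1.19 and 1.13 in the 3 lists, with intervals that hold 1. The lowest values were those at 100 to 190 kb, 0.1999, 0.118 and 0.0885, and at 200 kb or more it was 0.397, 0.181 and 0.165. Matching the bins in addition on whether they hold a gene start gave 0.457, 0.45 and 0.331, a setting added after the data were seen.

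The ratio fell as the space between the nearer bin and the boundary rose to 20 kb. In 1040 ES H3K27ac members (70.8%) one of the bins touched the boundary, as in 84.6% of ES KLF4 and 83.2% of MEF H3K27ac members. For these the ratio was 0.756, 0.792 and 0.737. With 10 kb between the nearer bin and the boundary it was 0.395, 0.290 and 0.251. With 20 kb it was 0.158, 0.113 and 0.0710. With 30 kb it was 0.134 (36 members), 0 (0 members, Poisson upper bound 0.0624) and 0.00507 (1 member). With 40 kb or more on both sides it was 0.108 in ES H3K27ac (70 members), 0.00650 in ES KLF4 (1 member) and 0.0215 in MEF H3K27ac (20 members). The TAD ends are given in steps of 40 kb, so a boundary's true place may lie on the other side of a bin that touches it. The members with 40 kb or more on both sides are those whose crossing does not depend on that step.

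**Figure D2:**
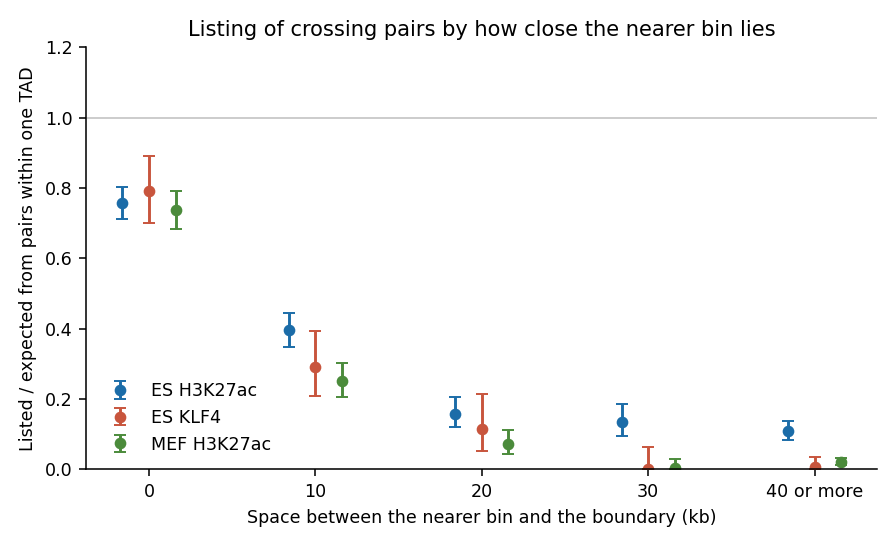
Ratio of listed crossing pairs to the number expected from pairs within a TAD of the same chromosome and distance (vertical axis), by the space in kb between the nearer bin and the boundary (horizontal axis), with Poisson intervals. All 3 lists fall from between 0.737 and 0.792 where a bin touches the boundary to at most 0.108 at 40 kb or more; the ES KLF4 and MEF H3K27ac values are lowest at 30 kb, with 0 and 1 members.

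Pairs just inside and just outside the rule were about equally strong. The unit here is the deposited CPM, the count scaled to a fixed total of contacts (per 1000000) on the same chromosome, averaged over libraries. In ES H3K27ac the 233 members 10 kb apart had a median of 7.33 CPM, and the 463 listed pairs of that distance that touch a boundary without crossing it had 7.26 CPM. At 30 kb the medians were 4.61 and 4.83 CPM. In ES KLF4 they were 7.04 and 6.58 CPM at 10 kb, and in MEF H3K27ac 6.67 and 6.60 CPM. 

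Members were slightly weaker than pairs within a TAD of the same chromosome and distance. The median log2 ratio of a member's CPM to the median of such pairs was −0.10 in ES H3K27ac (1334 members with at least 10 such pairs), −0.08 in ES KLF4 (308) and −0.07 in MEF H3K27ac (742). Single libraries gave −0.09 and −0.08 in ES H3K27ac, from −0.12 to −0.06 in ES KLF4, and −0.07 and −0.07 in MEF H3K27ac. Of the members, 41.3%, 38.3% and 39.6% lay above the median of their matched pairs. Every listed pair had at least 3 CPM in libraries 1 and 2 of its group, so weaker pairs are not seen on either side; ES KLF4 libraries 3 and 4 were under no such limit. In ES KLF4 the median was 0.01 with matching on distance and not on chromosome.

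Crossing pairs were less often contacts of the Hi-C list of the same cells. In ES H3K27ac 24.5% of members were Hi-C listed (350 of 1429; 22.3 to 26.8%, Wilson), and 45.9% of pairs within a TAD at the same distances were. The values were 42.9% and 61.9% in ES KLF4 and 20.8% and 45.8% in MEF H3K27ac. When each bin was allowed to shift by 1 bin, 60.8%, 79.6% and 58.0% of members had a Hi-C contact, against 78.6%, 88.7% and 79.3%. The gap was widest in ES H3K27ac at 50 to 90 kb, with 15.1% against 49.9%. In each list it was narrowest at 100 kb or more. There the values were 9.03% against 21.1% in ES H3K27ac and 23.9% against 37.2% in MEF H3K27ac. In ES KLF4 they were 41.2% (14 of 34; 26.4 to 57.8%, Wilson) against 46.2%, a value inside the interval. The TADs were deposited with these Hi-C libraries, so this is no independent check of the members.

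The members joined gene starts more often than other contacts did. Both bins held a gene start in 25.6% of ES H3K27ac members against 16.3% of pairs within a TAD at the same distances. The values were 25.3% and 15.6% in ES KLF4 and 15.5% and 8.11% in MEF H3K27ac. Pairs with no gene start at either end made up 23.2%, 25.9% and 44.5% of members, against 39.5%, 36.7% and 56.8% within a TAD. Where bins with a gene start lie along a TAD was not tested. These shares were matched on distance and not on chromosome. Chromosome 19 held a larger part of the members than of pairs within a TAD, as given below.

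Gene lists differed in their crossing shares: ribosomal protein genes stood above genes at large in the 3 lists, histone genes in ES H3K27ac, and zinc finger genes stood below. These shares count each pair once, and their differences were not tested. Of all pairs with a gene start in either bin, 2.69% crossed in ES H3K27ac (1126 of 41878), 1.66% in ES KLF4 and 1.96% in MEF H3K27ac. For ribosomal protein genes the shares were 7.82% (47 of 601 pairs; 5.93 to 10.2%, Wilson), 7.55% (8 of 106; 3.87 to 14.2%) and 4.40% (7 of 159; 2.15 to 8.81%). This list was made by symbol (Rpl, Rps or Rplp and a digit), so it can hold other genes whose symbols begin that way. Only 15 of the 88 genes of the list with an ES H3K27ac pair had a crossing one. Rpl17 had 8, Rps2 had 7, and Rpl3l, which was placed in 2 bins of which Rps2 shares 1, had 10. Histone genes crossed in 12 of 134 ES H3K27ac pairs (8.96%; 5.20 to 15.0%, Wilson), seen from 17 of 62 genes, with H2bc18, H3c13 and H4c14 sharing 4 pairs of 1 bin. None of their 20 ES KLF4 or 43 MEF H3K27ac pairs crossed. The cohesin and CTCF genes had a higher share still, 14.5% (9 of 62 ES H3K27ac pairs; 7.83 to 25.3%, Wilson), nearly all from 1 gene, Smc3. Genes of the mitochondrial ribosome crossed in 5.08% of 354 ES H3K27ac pairs, with Mrps18b in 7. Genes named Zfp, mostly clustered zinc finger repressors, crossed in 0.631% of 951 ES H3K27ac pairs (6 pairs; 0.289 to 1.37%, Wilson), 0 of 282 ES KLF4 pairs and 3 of 328 MEF pairs. Of 64 ES H3K27ac pairs of the clustered protocadherins, cell adhesion genes, 0 crossed, with a Wilson upper bound of 5.66%. Genes of a family often lie side by side and share bins, so these shares rest on fewer loci than genes.

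Hox genes, which set position along the body axis, crossed in MEF H3K27ac in 4 of 15 pairs, all 4 in the Hoxa cluster. Seen gene by gene, Hoxa10 had 3, and Hoxa9, Hoxa11 and Hoxa11os 2 each, with pairs repeated between them. The strongest joined the Hoxa9 bin (chr6:52220001-52230000) with the Hoxa10 and Hoxa11 bin (chr6:52240001-52250000) at 6.28 CPM. In ES H3K27ac 0 of 7 Hox pairs crossed, and in ES KLF4 1 of 22 did, seen from Hoxd11 and from Hoxd13. Of the cohesin and CTCF genes, Smc3, a cohesin subunit, had 8 of its 20 ES H3K27ac pairs over a boundary. Pds5a, a regulator of cohesin, had 1 of 2. Cdkn1c, an imprinted inhibitor of the cell cycle, had both of its ES H3K27ac pairs across a boundary, the longer at 340 kb. Among AP-1 genes, Fosb had 1 crossing pair of 6 in MEF H3K27ac.

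Listed pairs of marker genes went with the labelled cells, and pluripotency genes crossed at a share near that of genes at large. Pluripotency genes had more listed H3K27ac pairs in ES than in MEF for 23 of 24 genes (255 pairs against 4), and fibroblast genes more in MEF for 16 of 22 (115 against 9). Endoderm and trophoblast, endothelial and blood genes had 6, 3 and 6 pairs in ES and 1, 1 and 0 in MEF. Of the 255 ES H3K27ac pairs of pluripotency genes, 10 crossed (3.92%; 2.14 to 7.07%, Wilson): 5 of Nanog, 3 of Klf4, 1 of Sox2 and 1 of Mycn. The interval holds the 2.69% of all pairs with a gene start. In ES KLF4 0 of 55 crossed. For fibroblast genes 0 of 115 MEF H3K27ac pairs crossed, with a Wilson upper bound of 3.23%.

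Nanog, a core pluripotency factor, lies in the bin chr6:122700001-122710000, 60 kb beyond a boundary at 122640000 that 23 listed ES H3K27ac pairs crossed. On the other side lie Apobec1, a cytidine deaminase, and Dppa3 and Gdf3, which are active in early embryos and ES cells; farther out lies Phc1, a Polycomb subunit. Nanog with Apobec1 (100 kb) measured 9.24 and 9.56 CPM in the 2 ES H3K27ac libraries, above 95.5% of 22 pairs within a TAD on chromosome 6 at this distance. Nanog with Phc1 (360 kb) measured 6.47 and 7.42 CPM, and Nanog with Dppa3 (80 kb) 6.16 and 4.47 CPM. A bin with no gene start beyond Nanog, chr6:122760001-122770000, met Phc1 at 420 kb with 7.80 and 8.04 CPM. The 2 libraries lay close together for the Apobec1 and 420 kb pairs and less so for Dppa3. None of the 23 was in the Hi-C list. The MEF H3K27ac list and the 3 KLF4 lists had 0 pairs over this boundary, and the TKO lists had 21 at 0 h and 14 at 24 h. The nearest MEF boundary lay 40 kb away, at 122600000, and would leave the Apobec1 bin on the side of Nanog. In ES cells 30 kb lay between the Apobec1 bin and the boundary, and 10 kb between the Dppa3 bin and it. Both are less than the 40 kb step, so the side of these bins is not certain. The Apobec1 bin took part in 9 of the 23 pairs.

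Klf4, the gene of the factor itself, had 3 of its 4 ES H3K27ac pairs over a boundary at 55520000 on chromosome 4. Its strongest member joined the Klf4 bin (chr4:55530001-55540000) with a bin 60 kb away that holds no gene start (chr4:55470001-55480000). It measured 12.5 and 12.3 CPM, above 97.7% of 129 matched pairs within a TAD, with 40 kb between the far bin and the boundary and 10 kb between Klf4 and it. The same pair was listed at 14.9 CPM in TKO 0 h and 10.1 CPM in TKO 24 h, and in neither MEF H3K27ac nor the KLF4 lists. For Sox2 the one member reached the neighbouring bin with Mir1897 at 4.62 and 3.70 CPM, below most matched pairs.

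In ES H3K27ac a small number of boundaries carried many of the members. Of 2740 ES boundaries, 416 were crossed by an ES H3K27ac pair and 33 by 10 or more, and those 33 took 34.1% of all crossings. Only 1519 of the ES boundaries had a bin of an ES H3K27ac pair within 100 kb, and 27.3% of these were crossed. ES KLF4 pairs crossed 202, at most 7 pairs each, and MEF H3K27ac pairs 403 of 2694, at most 32 each. In MEF H3K27ac 7 boundaries were crossed by 10 or more pairs and took 11.9% of the crossings. Chromosome 19 held 18.9%, 19.3% and 14.0% of the members, against 6.83%, 8.54% and 8.04% of pairs within a TAD. CPM is set per chromosome, so on this small chromosome fewer counts reach the limit of the lists, for members and pairs within a TAD alike. Why chromosome 19 held more of the members was not tested. With 1 count limit for all chromosomes the crossing shares were 1.44%, 0.989% and 1.07%.

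The most crossed boundary lies at 8720000 on chromosome 19, next to Slc3a2, the heavy chain of amino acid transporters. ES H3K27ac had 35 pairs over it, 25 of them from the Slc3a2 bin (chr19:8710001-8720000), and MEF H3K27ac 8; both cell types have a boundary here, and 0 of the 35 were Hi-C listed. Slc3a2 with the neighbouring bin of Snhg1, a host gene of small nucleolar RNAs, was the strongest crossing pair of ES H3K27ac at 49.0 and 43.7 CPM (208 and 189 counts). This was above 97.8% of 674 pairs within a TAD on chromosome 19 at 10 kb, whose median was 14.1 CPM. It was also the strongest of ES KLF4, at 13.1, 17.5, 17.0 and 21.6 CPM, where the matched median was 13.46 CPM and 1 of the 4 libraries lay below it. In MEF H3K27ac it was listed at 18.3 CPM, in day 3 KLF4 at 15.2 CPM, and in the TKO lists at 46.7 and 49.1 CPM. Slc3a2 with Bscl2 and Gng3, 120 kb away, measured 13.7 and 16.0 CPM in ES H3K27ac, above all 139 matched pairs. The bin of Slc3a2 touches the boundary, so its side is known to within the 40 kb step.

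The boundary at 53400000 on chromosome 19, next to Smndc1, a splicing factor, had 31 ES H3K27ac, 7 ES KLF4 and 19 MEF H3K27ac pairs. Smndc1 had 24 of its 33 ES H3K27ac pairs and all 6 of its ES KLF4 pairs over a boundary. Its pair with Smc3 (chr19:53600001-53610000), 210 kb away over 2 boundaries, measured 10.8 and 12.5 CPM in ES H3K27ac, above all 29 matched pairs. The nearest MEF boundary is 200 kb away. The third in ES H3K27ac, at 7040000 on chromosome 19 beside Macrod1, an ADP-ribose hydrolase, had 30 pairs, 7 in MEF H3K27ac and 1 in ES KLF4. For ES KLF4 the boundaries with 7 pairs were that of Smndc1, one at 46320000 beside Nfkb2, an NF-kB subunit, and one at 37920000 whose crossing bins hold no gene start. All 7 pairs at Nfkb2 left its bin (chr19:46300001-46310000).

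In MEF H3K27ac the most crossed boundary lies at 62320000 on chromosome 15, with 32 pairs. No other HiChIP list had a pair over it, and the nearest ES boundary is 360 kb away. The 2 bins just beyond it, which hold no gene start, took 19 and 13 of the pairs. One partner was Myc (chr15:61980001-61990000), a growth factor response gene and reprogramming factor: it met chr15:62320001-62330000, 340 kb away, at 9.54 and 8.35 CPM (30 and 37 counts). The strongest pair over this boundary, and of all MEF members, joined chr15:62280001-62290000 with chr15:62320001-62330000 at 22.9 and 25.3 CPM. It lay above all 356 matched pairs, whose median was 4.52 CPM, and was Hi-C listed. At 22920000 on chromosome 19, 15 MEF pairs left the bin chr19:22910001-22920000, which holds no gene start, and reached up to 300 kb. The pair with Klf9 (chr19:23140001-23150000), a relative of Klf4, measured 11.8 and 15.0 CPM at 230 kb, above all 15 matched pairs. Tm9sf3, an endosomal membrane protein, had 6 of its 12 pairs over the third MEF boundary, at 41280000 on chromosome 19 (13 pairs).

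**Figure D3:**
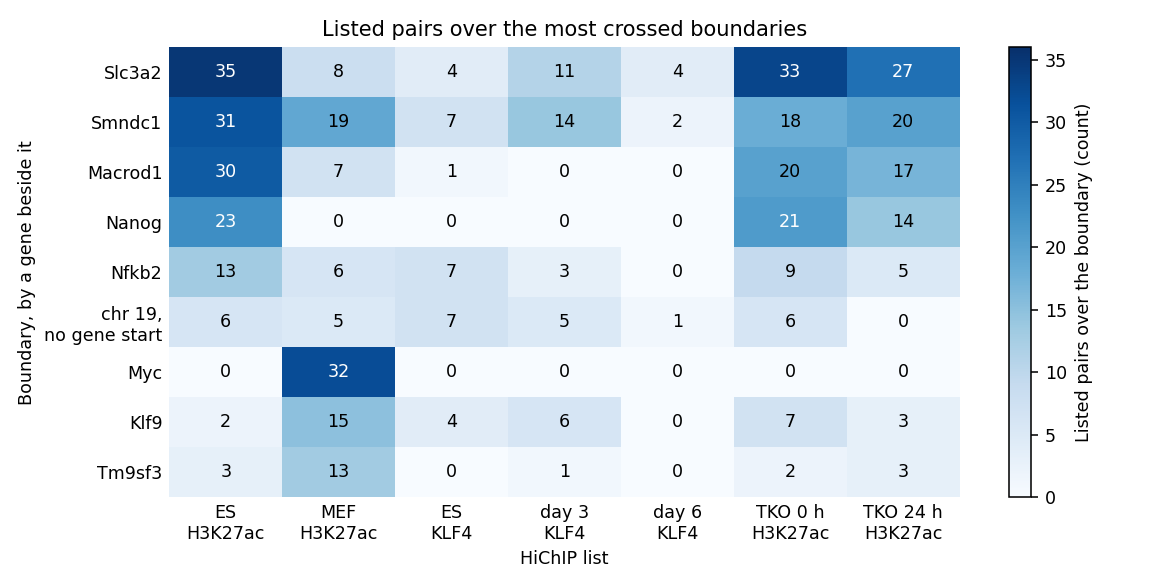
Number of listed pairs over each of 9 boundaries (rows, named by a gene beside them) in the 7 HiChIP lists (columns); colour and digits give the count. The Nanog boundary has 23, 21 and 14 pairs in the ES and TKO H3K27ac lists and 0 in the other 4, the Myc boundary has 32 in MEF H3K27ac and 0 in the other 6, and the Slc3a2 boundary has pairs in all 7.

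Strong members lay at other genes too. Hspa8, a constitutive heat shock chaperone, met the next bin (chr9:40790001-40800000) at 38.4 and 39.2 CPM in ES H3K27ac, above 99.5% of 1057 matched pairs, and was listed at 8.98 CPM in MEF H3K27ac. Fam160b1 measured 23.3 and 31.9 CPM with its neighbouring bin. In ES KLF4 Ms4a15 measured from 12.4 to 18.3 CPM and Eif4b, a translation initiation factor, from 13.1 to 18.5 CPM, the latter above 99.2% of 400 matched pairs and Hi-C listed with 38 and 59 counts. The strongest ES KLF4 members 100 kb or more apart were Smndc1 at 180 kb (mean 6.17 CPM), Mir193b at 330 kb (5.21 CPM) and Cdkn1c at 310 kb (4.83 CPM). Members with 40 kb or more to the boundary on both sides were ranked by CPM, a choice made after their values were seen. The strongest in MEF H3K27ac was Adamts1, a matrix protease, with a bin 1440 kb away at 4.63 and 5.92 CPM. In ES H3K27ac Usp48, a deubiquitinase, at 180 kb with 8.05 and 7.34 CPM, came next after the 420 kb pair of Phc1. In ES KLF4 one member, Dhx16 with Abcf1, had 40 kb to the boundary on both sides; it measured from 1.12 to 3.25 CPM.

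**Figure D4:**
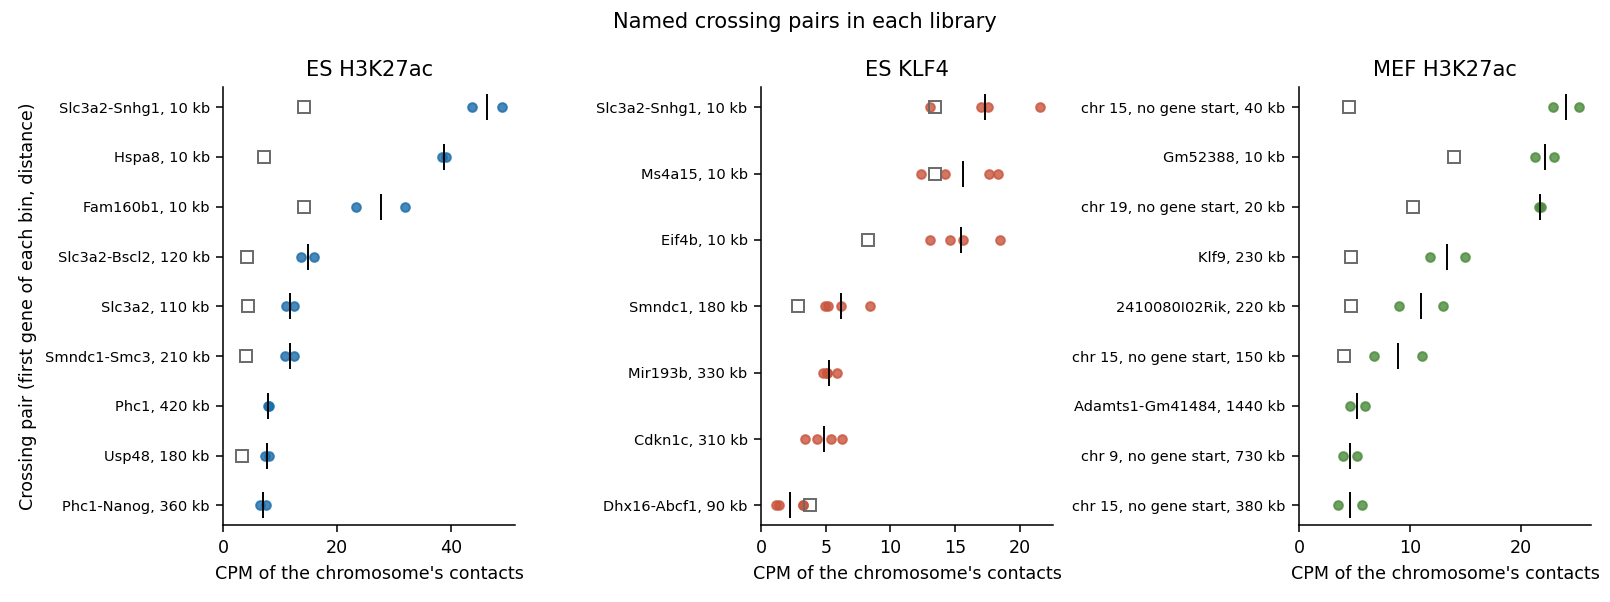
CPM of named crossing pairs in each library (horizontal axis, points), with the mean as a bar and, as an open square, the median of pairs within a TAD of the same chromosome and distance where at least 1 existed. In ES H3K27ac the Slc3a2 and Hspa8 pairs lie at 46.3 and 38.8 CPM on average. In ES KLF4 the Slc3a2 and Ms4a15 pairs spread over their squares, those of Eif4b and Smndc1 lie above theirs, and that of Dhx16 lies below.

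Members differed in how far other lists shared them. Of ES H3K27ac members at distances that could be matched, 69.1% were listed in TKO 0 h and 59.1% in TKO 24 h, against 74.6% and 68.3% of pairs within a TAD. For the MEF H3K27ac list the shares were 15.3% and 23.8%, and for ES KLF4 14.7% and 23.4%. MEF H3K27ac members went the other way for ES H3K27ac: 38.3% were listed there against 30.8% of pairs within a TAD. The ES lists shared 203 members, 13.8% of ES H3K27ac and 61.1% of ES KLF4. The 2 H3K27ac lists shared 131, 8.92% of the ES and 15.0% of the MEF members, and 43 stood in all 3 lists. Judged by the TADs of the other cell type, 61.2% of ES H3K27ac, 56.6% of ES KLF4 and 49.3% of MEF H3K27ac members still crossed a boundary.

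The contrast of MEF with ES was no part of the rule, but every pair compared had to reach 3 CPM in libraries 1 and 2 of both lists, so pairs listed in 1 cell type alone are not covered. Of 17901 pairs in both H3K27ac lists, 17.6% were higher and 14.4% lower in ES (edgeR's quasi-likelihood test, Benjamini-Hochberg adjusted p under 0.05, all pairs tested together). Of the 372 that crossed a boundary in at least one cell type, 86 were higher and 30 lower in ES, or 39 and 7 by DESeq2, which gave an adjusted p to 234 of them. Without MEF library 2, edgeR called 66 in all. Those that crossed in MEF alone were more often higher in ES (43 higher, 8 lower, of 158; median log2 change 0.17). Of the 80 that crossed in ES alone, 9 were higher and 14 lower (median −0.12), a direction that turned with contact totals in place of TMM factors, which gave 12 higher and 8 lower (median 0.13). Those that crossed in both split as 31 higher and 8 lower of 131 (median 0.08), and pairs within a TAD in both as 2902 and 2443 of 16428 (median −0.04). With contact totals the median of all pairs moved from −0.04 to 0.21, and the medians relative to it stayed at 0.21, −0.08 and 0.11 for MEF alone, ES alone and both. On that scaling 114 of the 372 were higher and 12 lower.

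Shares of counts within a library do not depend on TMM factors. Of the counts of shared pairs, pairs crossing in ES alone took 0.432% and 0.439% in MEF library 1 and 2, and 0.367% and 0.361% in ES library 1 and 2. For pairs crossing in MEF alone, the 2 MEF values were 0.785% and 0.772%, and those of ES were 0.906% and 0.902%. The groups did not overlap in either class, nor for pairs crossing in both cell types or within a TAD in both. With 2 against 2 libraries the two-sided exact permutation test gave its smallest possible value for each of these classes, p = 0.333. Library number thus limits this comparison to a description.

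**Figure D5:**
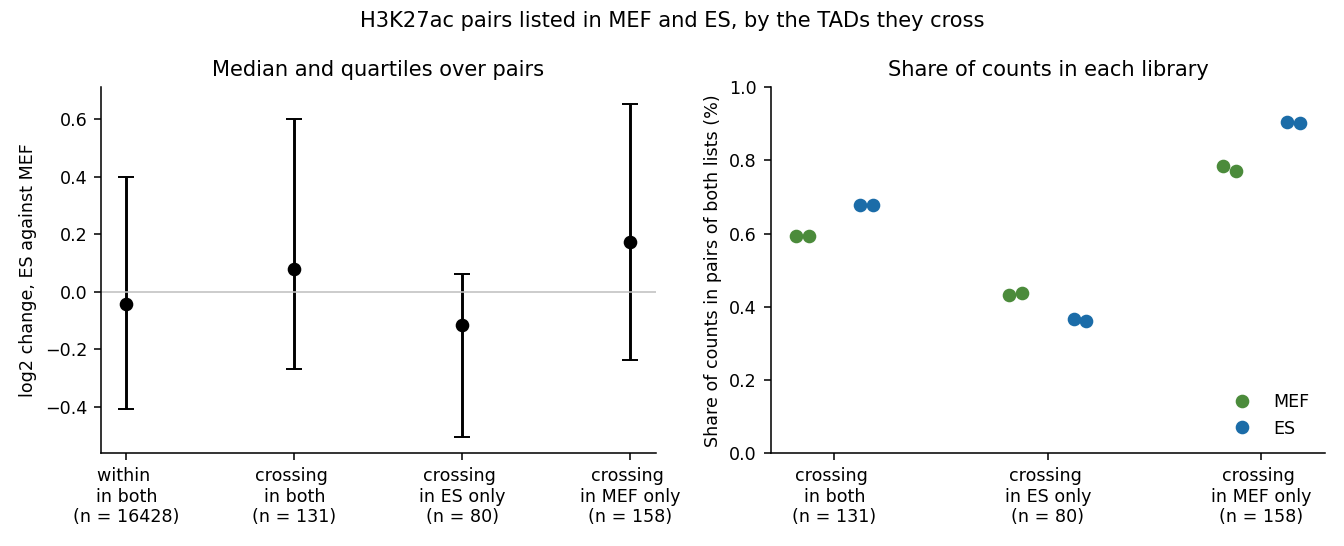
Left, log2 change of ES against MEF H3K27ac for pairs of both lists (vertical axis; median with quartiles over pairs) in 4 classes by the boundaries they cross. Right, share of the counts of shared pairs (%) in each library; ES points lie under MEF points for pairs crossing in ES alone and above them in the other 2 classes.

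Of the crossing pairs, Hspa8 with its neighbouring bin had the lowest p. It had 28 and 56 counts in MEF, 0.373 and 0.532 per 1000000 contacts of the library, and 340 and 352 counts in ES, 2.04 and 2.09 on that scale. Its log2 change was 1.90 ± 0.15 (SE; edgeR adjusted p = 7.0e-15). The bin of Cdc5l, a splicing factor, with its neighbour (chr17:45430001-45450000) had 15 and 34 counts in MEF and 198 and 218 in ES, and rose by 1.94 ± 0.19 (edgeR adjusted p = 9.3e-12). Dnajc21, a co-chaperone of ribosome assembly, with Brix1 and Rad1 rose by 1.56 ± 0.18 (edgeR adjusted p = 1.3e-09); these last 2 pairs crossed in MEF alone. Lower in ES were 2 pairs of the bin chr15:76190001-76200000, with log2 changes of −1.79 ± 0.19 and −1.50 ± 0.24, and the Tpt1 bin (chr14:75840001-75850000) with its neighbour, at −1.22 ± 0.22; all 3 crossed in ES alone. Tpt1 encodes a translationally controlled tumour protein. The pair with −1.79 had 53 and 117 counts in MEF and 63 and 45 in ES, which is 0.707 and 1.11 against 0.378 and 0.267 per 1000000 contacts.

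For KLF4, few of the pairs in both lists were called between reprogramming cells and ES cells, among crossing pairs as among all. Pairs in 1 list alone were not tested, and most ES KLF4 members were of that kind. Of ES KLF4 members at distances that could be matched, 27.9% were listed at day 3 and 7.14% at day 6. For pairs within a TAD the shares were 30.6% and 9.81%. Over an ES boundary lay 91 pairs of both the day 3 and ES lists. Of these, 1 was higher and 4 lower in ES (edgeR adjusted p under 0.05), which is 1.10% and 4.40%. Of all 7387 pairs, 3.02% and 4.18% were. The 91 pairs, and the 22 of day 6 below, are too few to set crossing pairs apart from all pairs. ES KLF4 libraries 1 and 2, and 3 and 4, did not differ beyond sampling noise by a chi-square test (1.01 and 0.966 per degree of freedom, from 1.25 to 1.503 for the other combinations) and were each counted as 1 sample. The pair of Arl2bp with Pllp (chr8:94660001-94700000) was lower in ES by a log2 change of −1.21 ± 0.23 (edgeR adjusted p = 8.1e-05). It had 0.331, 0.442 and 0.410 counts per 1000000 contacts at day 3 and 0.206, 0.231, 0.171 and 0.137 in ES. The Hspa8 bin with a bin 40 kb away was also lower, at −0.87 ± 0.23, a call lost without day 3 library 1 or 3 (edgeR adjusted p = 0.0650 and 0.0555) and by DESeq2 (adjusted p = 0.149). Slc25a38 with Rpsa, a ribosomal protein, was lower at −0.69 ± 0.21. The bin of Taf5l and Urb2 was higher, at 0.74 ± 0.23. The Rpsa call was lost without day 3 library 1, 2 or 3 or ES library 4 (edgeR adjusted p from 0.0504 to 0.189), the Taf5l call without day 3 library 1, 2 or 3 or ES library 2 or 4 (from 0.0591 to 0.259), and both without TMM factors. DESeq2 called 0 of the 23 to which it gave an adjusted p, with 6 of the 91 at an unadjusted p under 0.05. Of 22 crossing pairs in both the day 6 and ES lists, edgeR called 0, with 4 at an unadjusted p under 0.05, and DESeq2 0 of the 2 to which it gave an adjusted p, while 2.60% of all 2076 pairs were higher and 0.771% lower in ES. With contact totals in place of TMM factors 8 of the 22 were higher in ES, as were 1158 of all.

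After 24 h of dox the TKO cells had 5 of 1036 crossing pairs higher and 20 lower than at 0 h (edgeR adjusted p under 0.05). Of all 67728 pairs in both TKO lists, 0.576% and 2.04% were, and pairs in 1 list alone were not tested. Crossing was judged here by the TADs of ES cells, since no TADs of TKO cells were used. TKO 0 h libraries 2 and 3, and TKO 24 h libraries 1 and 3, did not differ at the limit of 0.01 by a chi-square test and were each counted as 1 sample, although the 0 h libraries would have differed at 0.05. With all libraries separate 5 pairs were higher and 23 lower. The share of crossing pairs called, 0.483% and 1.93%, was near that of all pairs. The pair at chr10:95870001-95900000 was lower by −1.14 ± 0.18 (edgeR adjusted p = 2.7e-07), with 0.755, 0.735 and 0.944 counts per 1000000 contacts at 0 h and 0.351, 0.334 and 0.333 at 24 h. A 200 kb pair with no gene start on chromosome 16 was lower by −1.06 ± 0.20, and the bin of Mir124a-1, a brain microRNA gene, with its neighbour by −0.79 ± 0.17. Of the higher ones, 2 left the bin of Ndufa11, a subunit of respiratory complex I, at 1.12 ± 0.25 and 0.70 ± 0.20, and 1 that of Rap1gap2, at 0.65 ± 0.16. The stronger Ndufa11 pair lost it without 0 h library 1 (edgeR adjusted p = 0.0768), the other without 0 h library 2 or 3 or 24 h library 1 or 2 (from 0.0729 to 0.157), and that of Rap1gap2 without 0 h library 3 or 24 h library 2 or 3 (from 0.0512 to 0.0781). DESeq2 called 0 of the 18 to which it gave an adjusted p, with 24 of the 1036 at an unadjusted p under 0.05, and with contact totals in place of TMM factors 2 were higher and 50 lower.

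The share of counts in crossing pairs was compared over libraries, and none of these designs is large enough to reach 0.05. It was 1.12% ± 0.0147 (SD, n = 3) at day 3 and 1.08% ± 0.0121 (n = 2) in ES KLF4, with a two-sided exact permutation p of 0.2, the smallest 3 against 2 can give; the 2 groups did not overlap. For day 6 it was 1.07% ± 0.0427 (n = 4) against 1.00% ± 0.0384 (n = 2) (exact permutation p = 0.267), and the groups overlapped. For TKO it was 1.27% ± 0.00303 (n = 2) at 0 h and 1.25% ± 0.000593 (n = 2) at 24 h (exact permutation p = 0.333, the smallest 2 against 2 can give), and the groups did not overlap. Adjusted over the 3 comparisons, each p was 0.333.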

How the data were processed

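HiChIP (21 libraries) and Hi-C (4 libraries) contacts were used as deposited, per pair of 10 kb bins. The counts are the authors' raw contacts per pair and library. CPM is, per the file headers and the values, the authors' count per 1000000 contacts of the same chromosome, and every listed pair has at least 3 CPM in libraries 1 and 2. The authors' deposited p-value and FDR columns were used in an alternative alone. The TAD score in the deposited domain files was not used; domains (2759 in ES, 2713 in MEF, median 600.0 and 560.0 kb) end in 40 kb steps. Build mm10 and Bowtie2 2.2.3 are per the submitters' processing notes; the TAD and contact callers are not given in the sources used here. Libraries of the 3 lists held from 51.9 to 168 M contacts, and 29 per-sample columns were not used.

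A pair crossed when its bins lay in different TADs. Percentages have 95% Wilson and ratios Poisson intervals, for counting error only. Pairs within a TAD were matched by distance or by chromosome and distance, in strata of at least 10. Genes were placed by RefSeq start (27025), by lying in 1 bin (14837) or by the authors' annotation (3314). Histone genes were matched also under newer symbols.

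Counts of pairs in both lists of a comparison were tested with edgeR 4.0.16 (R 4.3.3; quasi-likelihood, TMM factors, Benjamini-Hochberg over all pairs, called under 0.05), with DESeq2 1.42.0 as an alternative. Libraries whose counts did not differ by a chi-square test at 0.01, over pairs of at least 6 CPM, were summed where others of their group differed. That limit was set after the values were seen, and it joined TKO 0 h libraries 2 and 3. Same-numbered libraries did not deviate together. On simulated counts 71.1, 77.4, 84.5 and 71.9% of 2-fold changes were recovered for MEF, day 3, day 6 and TKO, in that order. Of the calls made there, 7.89, 3.75, 5.06 and 2.72% were false.

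Named were the 3 strongest crossing pairs of each list, the 3 strongest at 100 kb or more, the 3 most crossed boundaries, the genes with the most crossing pairs, marker genes with a crossing pair, and the 3 lowest p-values per direction among called crossing pairs. The members, gene lists and tests were chosen with earlier results of these data known. Python 3.11.15, pandas 2.3.3 and scipy 1.17.1 were used.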

Additional observations from a re-analysis of the deposited data

How the results depend on the processing

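In order ES H3K27ac, ES KLF4 and MEF H3K27ac, the crossing share became 3.87, 2.24 and 1.67% with the TADs of the other cell type. It became 0.101, 0.00432 and 0.0351% when both bins had to lie 40 kb or more from the boundary, 3.37, 2.21 and 2.22% for bins 50 kb or more apart, 1.29, 0 and 3.19% at a deposited FDR under 0.1, 1.44, 0.989 and 1.07% with 1 count limit, and 1.81, 1.25 and 1.42% without chromosome 19. The listing ratio became 0.6001, 0.517 and 0.363 with the other TADs, 0.108, 0.00650 and 0.0215 at 40 kb, and 0.284, 0.173 and 0.148 for 50 kb or more apart. At an FDR under 0.1 it was 0.496 in ES H3K27ac (987 possible crossing pairs) and 0.649 in MEF H3K27ac (18 possible crossing pairs). No value could be given for ES KLF4, where 0 crossing pairs remained. Without chromosome 19 the ratio was 0.484 in ES KLF4. It was below 1 under every alternative run. Strength became −0.0500 in ES H3K27ac and −0.0559 in MEF H3K27ac with the other TADs. At 40 kb it was −0.145 in ES H3K27ac (26 members) and −0.745 in ES KLF4 (1 member). With distance strata it was −0.0512, 0.00978 and −0.0425. In the H3K27ac lists it was −0.0795 and −0.0541 for 50 kb or more apart, and −0.113 and −0.0799 without chromosome 19. The ES KLF4 value with distance strata was the one reversed sign; the cause was not tested. Leaving out a library gave strength from −0.0881 to −0.0820 in ES H3K27ac, −0.0997 to −0.0675 in ES KLF4 and −0.0740 to −0.0688 in MEF H3K27ac. The Hi-C difference became −17.6, −70.4 and −43.1 percentage points at 40 kb, values that rest on 46, 1 and 4 members. It was −17.8, −9.04 and −21.3 with each bin allowed to shift. In MEF H3K27ac it was −17.7 with ES TADs and −19.6 for 50 kb or more apart. The runs without chromosome 19, and those with gene start strata, were chosen after seeing the data.

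Calls among crossing pairs for MEF to ES (116) became 46 with DESeq2, 39 for pairs crossing in both TAD lists and 8 for 50 kb or more apart, and leaving out a library gave from 66 to 103, the 66 without MEF library 2. For day 3 (5) they became 0 with DESeq2, 2 with contact totals, 9 with all libraries separate, 8 with MEF TADs and 0 for 50 kb or more apart; leaving out a library gave from 1 to 7. For day 6 (0) they became 8 with contact totals and 1 with all libraries separate; leaving out a library gave from 0 to 2, the 2 without ES KLF4 library 2. For TKO (25) they became 0 with DESeq2, 52 with contact totals, 40 with MEF TADs and 1 for 50 kb or more apart; leaving out a library gave from 15 to 19. With a replicate block and all libraries separate the counts were 118, 2, 1 and 29; the numbers do not pair libraries. The causes were not tested. Of 160 values of named changed pairs under an alternative that gave an adjusted p, 134 kept their call and 26 lost it. Part of the 134 could not change. Without the filter on low counts the same pairs were tested with the same result for MEF, day 3 and TKO. The runs with another choice of TAD list reused the main fit. DESeq2 gave no adjusted p for 8 named pairs. It gave one to 234, 23, 2 and 18 crossing pairs of the 4 comparisons, of 372, 91, 22 and 1036.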
